A study of Drosophila melanogaster with 6 samples.

Results

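Juvenile hormone metabolism and response were described from 10 genes of *Drosophila melanogaster*, chosen by name: the epoxide hydrolase genes *Jheh1*, *Jheh2* and *Jheh3*, the esterase genes *Jhe* and *Jhedup*, the hormone-inducible genes *JhI-21* and *JhI-26*, the receptor gene *Met*, the response gene *Kr-h1* and the binding protein gene *to* (takeout). A gene was measured where a probe set (the group of short probes that reports one transcript) was annotated to it alone. By that rule 7 of the 10 genes had 1 probe set each, 7 of 15131 probe sets and 7 of 11803 genes in all. No probe set was paired with *Jheh1*, *Jheh3* or *to* in the annotation used here, so these 3 genes were not analysed here. The samples were 6 pools of 75 to 100 heads each from Canton S flies, a laboratory wild-type strain, labelled female. There were 3 pools of 10-day-old and 3 of 40-day-old flies, with the replicate numbers 1, 2 and 3 at each age, and no other treatment or genotype is given. RNA was measured on Affymetrix Drosophila Genome 2 arrays, and the values are log2 expression values made with GCRMA, which subtracts an estimated background and puts the arrays on a common scale.

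Juvenile hormone is a sesquiterpenoid made in the corpora allata, which are endocrine glands. Its skeleton comes from the mevalonate pathway, and the methyltransferase encoded by *jhamt* acts in the last steps. In the larva it holds back metamorphosis, and in the adult it acts on egg maturation, male accessory gland function, mating behaviour and fat body metabolism. Esterases such as the product of *Jhe* cleave its methyl ester, and epoxide hydrolases, the Jheh enzymes, open its epoxide ring. In cells the hormone binds the bHLH-PAS proteins Met and Gce, which with the coactivator Taiman switch on *Kr-h1*, a zinc finger transcription factor gene. Takeout belongs to a family of secreted proteins related to the insect proteins that carry juvenile hormone in the hemolymph.

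The tissue label was checked first. Photoreceptor, neuron and glia markers were present, with median log2 levels of 14.14 over 3 genes, 7.96 over 5 and 9.54 over 4, of which only the channel gene *para* lay under 4. The neuron marker *brp*, at 4.94 with an SD of 0.01, hardly varied between samples and may lie at background as well. All 9 markers of the male reproductive tract were also bright, with a median of 14.79 and the lowest, *dj*, at 8.91. So were all 6 gut markers, with a median of 14.92 and the lowest, *LManI*, at 8.51. Of 7 ovary and egg markers, 6 lay under 4, and *grk* was at 9.43. The yolk protein genes *Yp1*, *Yp2* and *Yp3* had means of 7.29, 3.61 and 8.86, and the female-enriched *fit* 7.22. *Cyp4d21*, which is higher in males, had a mean of 11.51. The samples are called samples labelled female heads. The male tract levels go against the sex and the tissue of the label, and the gut levels against the tissue. Which sexes the pools held was not tested. In pools of whole tissue, fewer cells of a type and less RNA per cell cannot be told apart.

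The receptor gene *Met* lay near background on its probe set. Its log2 values at 10 days were 2.78, 2.76 and 3.09 for numbers 1, 2 and 3, and at 40 days 2.76 in all 3 samples. Only the 10-day sample of number 3 stood above the others. The mean of 2.82 was under the level of 4 that a probe set needed to be tested, so no difference between ages is reported for *Met*. Both probe sets of its paralogue *gce*, which encodes the other receptor, lay at 2.06 in all 6 samples, the lowest value of the table. A value at background does not show that the transcript is absent.

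The response gene *Kr-h1* was well above background, and its samples differed without a common direction between the ages. Its log2 values were 10.62, 9.40 and 10.14 at 10 days and 10.04, 9.79 and 9.36 at 40 days, for numbers 1, 2 and 3. The highest sample was number 1 at 10 days and the lowest number 3 at 40 days, and the ages overlapped. By number, the older sample minus the younger gave -0.57, 0.39 and -0.78, so number 2 went against the other pairs. The mean was 10.05 ± 0.61 at 10 days and 9.73 ± 0.34 at 40 days (log2 ± SD, n = 3 each). The log2 difference of -0.32 ± 0.34 (SE) did not pass the test (limma adjusted p = 0.714, 95% interval -1.14 to 0.50). With the replicate number as a block the interval was -0.94 to 0.30 (limma adjusted p = 0.451). Without both samples of number 2 the difference was -0.68, also with the block (adjusted p = 0.580, and 0.0683 with the block).

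*Jheh2*, the epoxide hydrolase gene, had the narrowest spread of the 6 tested genes, and its ages did not overlap. Its log2 values were 12.81, 12.96 and 12.93 at 10 days and 12.65, 12.77 and 12.78 at 40 days. Every sample of 40 days lay below every sample of 10 days. Of the 10286 tested probe sets, 19.8% had ages that did not overlap and 8.42% had them in this direction, against 1 of the 6 tested juvenile hormone genes. The differences by number were close to each other, at -0.16, -0.19 and -0.15. The means were 12.90 ± 0.08 and 12.73 ± 0.07 (log2 ± SD, n = 3 each), a level at 40 days of 0.890 times that at 10 days. The log2 difference of -0.17 ± 0.07 (SE) did not pass (limma adjusted p = 0.386, 95% interval -0.34 to 0.00). With the block the SE was 0.04 and the interval -0.28 to -0.06, and the gene still did not pass (limma adjusted p = 0.110). In the reference annotation *Jheh2* lies between *Jheh1* and *Jheh3*.

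**Figure D1:**
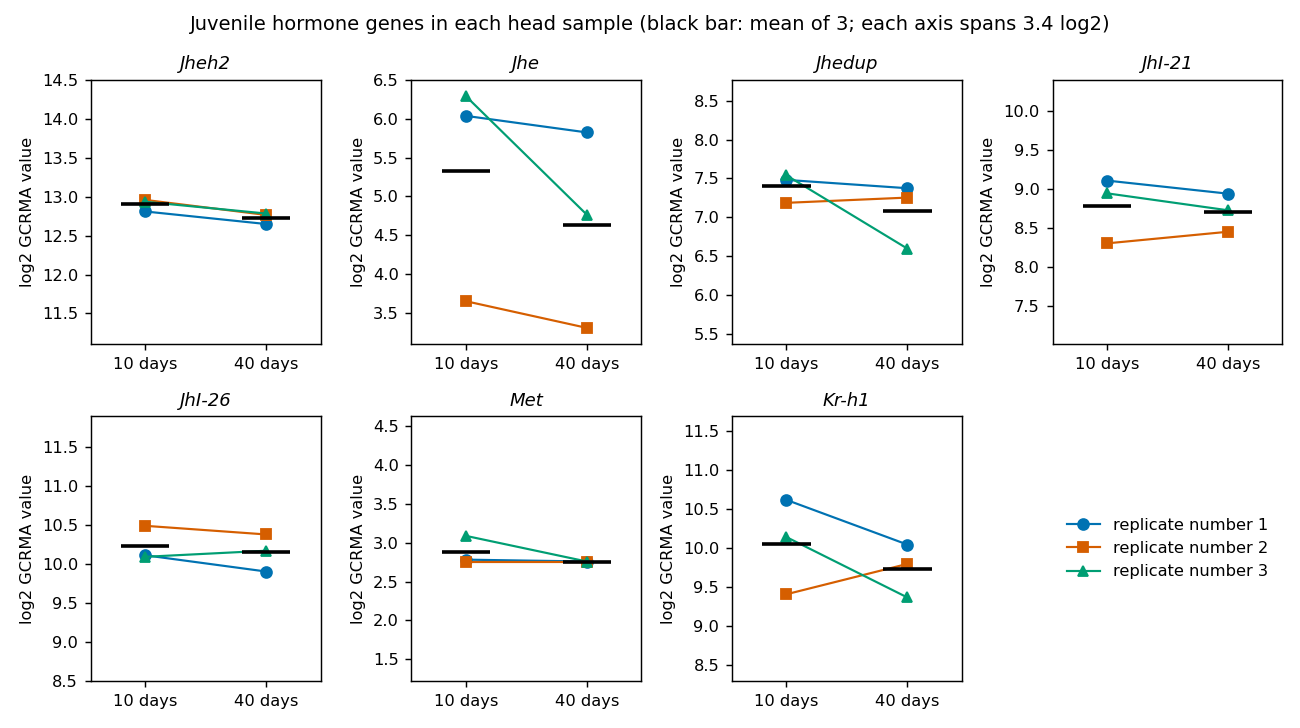
Log2 GCRMA value of each measured gene (vertical axis) in the samples of 10 and 40 days (horizontal axis). Points are samples, lines join samples of the same replicate number, and black bars are means of 3. Each panel spans the same log2 width. *Jhe* of number 2 lies at 3.65 and 3.31, far below the other numbers, and *Jheh2* moves in parallel in all 3 pairs.

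*Jhe*, the juvenile hormone esterase gene, had the widest spread of the measured genes. Its log2 values were 6.04, 3.65 and 6.29 at 10 days and 5.82, 3.31 and 4.77 at 40 days. Both samples of number 2 lay below the other 4 and under 4, near background, so the size of their distance depends on the background correction. The range over the 6 samples was 2.98 log2, or 7.89-fold. Within each number the older sample was lower, by -0.21, -0.34 and -1.52 for numbers 1, 2 and 3, and the largest of these came from number 3. The log2 difference between the ages of -0.69 ± 0.91 (SE) did not pass (limma adjusted p = 0.781, 95% interval -2.92 to 1.54). With the block it was -0.69 ± 0.28, and the interval was -1.42 to 0.03 (limma adjusted p = 0.212). Leaving out day 40 replicate 2 gave -0.03, and leaving out day 10 replicate 2 gave -1.53.

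*Jhedup*, the neighbouring esterase gene, was lower in 1 sample only. Its log2 values were 7.48, 7.19 and 7.54 at 10 days and 7.37, 7.25 and 6.60 at 40 days. The 40-day sample of number 3 lay apart from the other 5, and the ages overlapped. The differences by number were -0.11, 0.07 and -0.94. The mean log2 difference was -0.33 ± 0.22 (SE; limma adjusted p = 0.559, 95% interval -0.88 to 0.22), and -0.09 without day 40 replicate 3. Both esterase genes thus had their largest drop in the pair of number 3, as did *Kr-h1* and *JhI-21*, at -0.78 and -0.22. *Jheh2* and *JhI-26* had theirs in number 2 and number 1, at -0.19 and -0.21. How far probes for *Jhe* or *Jhedup*, which are adjacent and related, bind the transcript of the other was not tested.

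The hormone-inducible genes *JhI-21* and *JhI-26* passed neither between the ages nor between the replicate numbers. *JhI-21*, which encodes an amino acid transporter, had log2 values of 9.11, 8.30 and 8.94 at 10 days and 8.94, 8.45 and 8.73 at 40 days. Both samples of number 2 were lower than the other 4, as for 12.0% of all tested probe sets. *JhI-26*, named for its induction by the hormone, had values of 10.11, 10.49 and 10.09 at 10 days and 9.90, 10.38 and 10.17 at 40 days. Here both samples of number 2 were higher than the other 4, as for 13.2% of all tested probe sets. The differences between the ages were -0.08 ± 0.24 for *JhI-21* and -0.08 ± 0.16 for *JhI-26* (log2 ± SE; limma adjusted p = 0.914 and 0.867). Their 95% intervals ran from -0.66 to 0.51 and from -0.48 to 0.32. With the block the intervals were -0.33 to 0.17 and -0.28 to 0.12 (limma adjusted p = 0.642 and 0.551). The sign of both differences turned when single samples were left out.

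None of the 6 tested genes passed the test between the ages. Of all tested probe sets, 35 passed, or 0.340%, and with the block 198, or 1.92%, of which those lower at 40 days made up 1.30% of the tested probe sets. With the block the count of juvenile hormone genes was 0 as well. Before adjustment, a p under 0.05 was reached by 0 of the 6 genes without the block, against 13.1% of all tested probe sets, and by 1, *Jheh2*, with it, against 25.1%. The mean at 40 days was below that at 10 days for all 6 genes, with a median log2 difference of -0.24, while 48.2% of all tested probe sets were lower and their median was 0.01. Of the 6 genes, *Jheh2* and *Jhe* were lower in all 3 pairs, as were 23.2% of all tested probe sets. These 6 genes share their samples, so their directions are not independent of each other. Missing the threshold in so few samples does not show that a gene stayed the same.

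**Figure D2:**
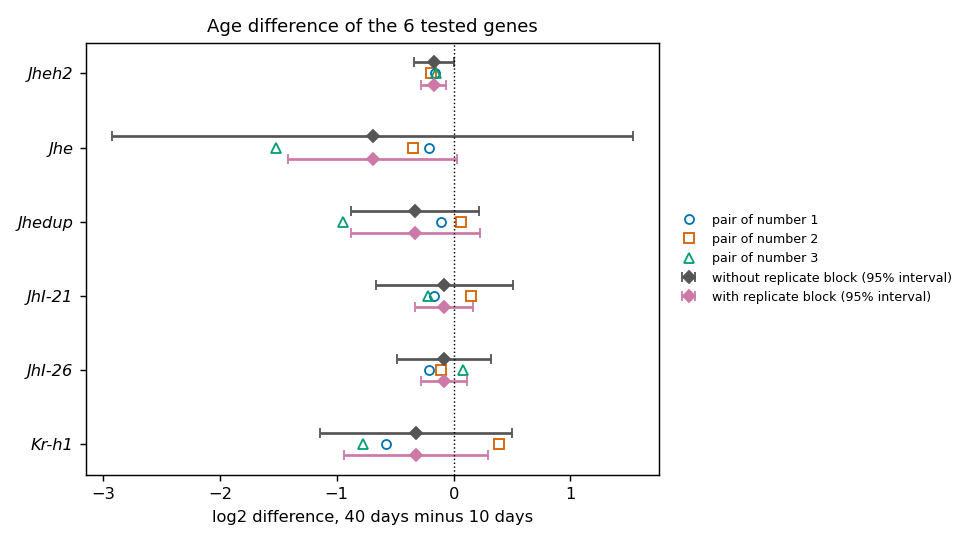
Log2 difference of 40 minus 10 days (horizontal axis) for the 6 tested genes (vertical axis). Diamonds are limma estimates with 95% intervals, grey without and pink with the replicate number as a block, and open symbols are the 3 pairs. All estimates lie below 0, from -0.69 to -0.08, and only the blocked interval of *Jheh2* leaves 0 out.

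Among the 6 tested genes, *JhI-21*, *JhI-26* and *Jhe* had the largest shares of their spread between the replicate numbers. Differences between numbers made up 90.1%, 86.2% and 84.7% of their sum of squares over the 6 samples, against a median of 49.2% over all tested probe sets. The share of *Jhe* depends on the background correction, since its samples of number 2 lay near background. For *Kr-h1* the share was 52.3%, and for *Jhedup* 22.3%. *Jheh2* was the gene with the largest share between the ages, 64.6%, where the median of all tested probe sets was 22.0%. With 3 numbers and 2 ages, the shares of the 2 sources are not ranked against each other.

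Replicate numbers were also compared by limma's moderated F test with age as a covariate, which 4.72% of all tested probe sets passed. *Jhe* was the 1 juvenile hormone gene of 6 under the threshold (adjusted p = 0.0460). It reached the filter at 4 only through numbers 1 and 3, with means of 5.93 and 5.53, while number 2 lay near background, so this p is no support for a difference and no size is given for it. *JhI-21* and *JhI-26*, in which number 2 differed from the mean of numbers 1 and 3 by -0.55 and 0.37 log2, gave adjusted p = 0.0870 and 0.120 and did not pass. The p of *Jhe* was over the threshold without day 10 replicate 1 (adjusted p = 0.161), day 10 replicate 2 (0.143), day 40 replicate 1 (0.174) or day 40 replicate 2 (0.0661), in a test with no filter on dim probe sets (0.246) and by eBayes without a trend (0.0623). Without day 40 replicate 2, *Kr-h1* passed in its place (adjusted p = 0.0302). Of all probe sets 485 passed, a count of 3 when day 10 replicate 1 was left out, 0 when day 40 replicate 1 was, and 1 with no filter on dim probe sets. Over all tested probe sets, both samples of number 2 lay below the other 4 for 12.0% and above them for 13.2%, against 2 and 1 of the 6 juvenile hormone genes.

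**Figure D3:**
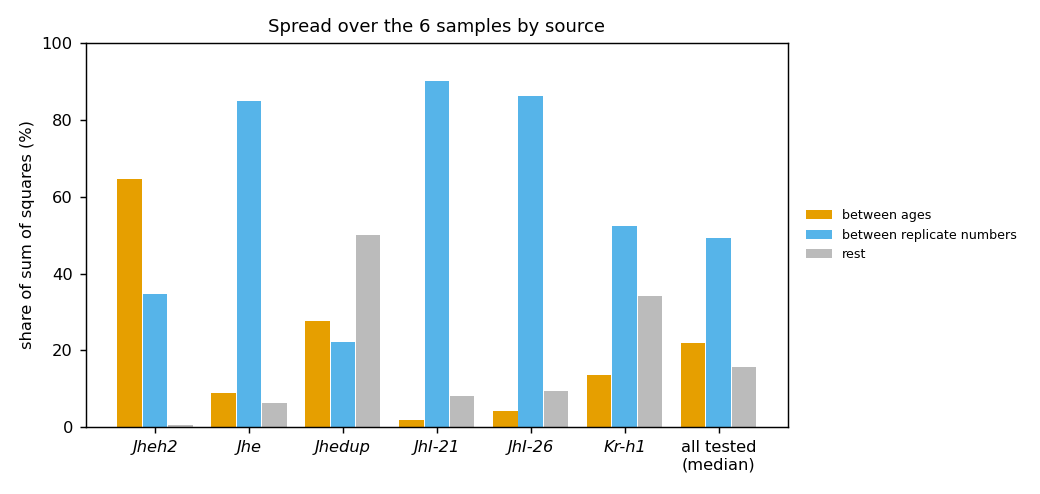
Share of the sum of squares over the 6 samples, in percent (vertical axis), that lay between the ages, between the replicate numbers and in the rest, for each tested gene and as medians over all tested probe sets. *JhI-21*, *JhI-26* and *Jhe* have between 84.7% and 90.1% between numbers, and *Jheh2* has 64.6% between ages.

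Some markers of other tissues, and 1 of glia in the head, also parted replicate number 2 from the other samples. Of all tested probe sets, 12.0% had number 2 below all others and 13.2% above. The summed signal of the 9 male reproductive tract markers was 17.57 and 17.84 log2 in the samples of number 2 and between 17.88 and 18.04 in the other 4, with 3 of the 9 genes below all others there. The summed signal of the 6 gut markers was between 17.13 and 17.18 in number 2 and between 17.32 and 17.48 in the others, with 4 of the 6 genes below and 1 above all others. No marker of either list was under 4. The 6 fat body markers summed to between 17.12 and 17.19 in number 2 and between 17.12 and 17.28 in the others, and only *Fbp1*, a larval serum receptor gene, was at the floor of the table. The 4 glia markers summed to 13.47 and 13.61 in number 2 and between 13.64 and 13.81 in the others, with 1 gene, *Gs2*, below all others. *Gs2* was the brightest of them, with a mean of 13.43. The dimmer *repo*, *moody* and *alrm*, with means from 8.45 to 10.28, overlapped between number 2 and the others. Sums of the photoreceptor and neuron markers overlapped between number 2 and the others, and 1 photoreceptor marker was above all others in number 2. Between the ages the sums overlapped for the male tract (17.57 to 18.04 at 10 days, 17.84 to 17.98 at 40 days), for the gut (17.13 to 17.34 and 17.18 to 17.48) and for the fat body (17.14 to 17.28 and 17.12 to 17.23). Single markers did part the ages, as did 19.8% of all tested probe sets. Of the 9 male tract markers, *Mst84Db* (13.85 to 14.00 at 10 days, 14.13 to 14.22 at 40 days) and *betaTub85D* (12.65 to 12.80 and 12.88 to 12.97) had all older samples higher, and *dj* (9.40 to 9.58 and 8.29 to 8.37) had them lower. Of the 6 gut markers, *LManI* had them lower (8.66 to 8.76 and 8.13 to 8.57). Of the 5 neuron markers, *Rdl* had them higher (7.75 to 7.89 and 7.91 to 8.19). No photoreceptor, glia or fat body marker parted the ages. The part of these tissues in the levels of the juvenile hormone genes, between numbers or ages, was not tested.

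Genes of juvenile hormone synthesis showed no called change with age. Of 9 listed, 7 had a probe set and 6 were tested, and 0 passed in either direction, with or without the block. Their median log2 difference was -0.01, with 3 below and 3 above 0. *jhamt* had log2 values of 9.37, 7.94 and 8.92 at 10 days and 8.79, 8.03 and 8.15 at 40 days, so both samples of number 2 lay below the other 4, as for *Jhe* and *JhI-21*. Its difference between the ages was -0.42 ± 0.40 (SE; limma adjusted p = 0.682, and 0.236 with the block). The next smallest adjusted p was that of *Pmvk*, a kinase gene of the mevalonate pathway, at 0.02 ± 0.07 (0.900). *Hmgs*, the HMG-CoA synthase gene at the start of that pathway, also had number 2 below the other samples, as for 12.0% of all tested probe sets. *Pmvk* had number 2 above the others, at 8.05 and 8.07 against 7.94 to 8.03, as for 13.2%. *Cyp6g2* lay under 4 and was not tested.

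Among the partners of the receptor, the coactivator gene *tai* had the largest difference between the ages. Its log2 values were 7.70, 7.49 and 7.30 at 10 days and 6.78, 6.98 and 6.68 at 40 days. All 3 older samples lay below all 3 younger ones, as for 8.42% of all tested probe sets. The difference of -0.69 ± 0.13 (SE) did not pass over all tested probe sets (limma adjusted p = 0.156, and 0.0585 with the block). Of 7 listed genes 5 had a probe set, 4 were tested and 0 passed, with a median of -0.08. *Fkbp39*, which encodes an FK506-binding protein, gave -0.12 ± 0.10 (adjusted p = 0.610). The 6 tested genes of the ecdysone axis, the other hormone of insect molting, had 8 probe sets bright enough to be tested, with a median of 0.02, and 0 passed. Their other 6 probe sets lay under 4. There the smallest adjusted p were those of *Eip93F*, with 0.15 ± 0.08 (0.453) on its brighter probe set, and *br*, with -0.20 ± 0.12 (0.508).

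Between the ages, 1 relative of takeout passed with the replicate block and 0 without it. Of 14 genes named Jhbp (juvenile hormone binding protein), 12 had a probe set and 9 were tested, of which 1 passed with the block, against 1.92% of all tested probe sets. Their median log2 difference was -0.21, with 8 of 9 below 0 and 7 lower in all 3 pairs, against 48.2% and 23.2% of all tested probe sets. *Jhbp14* had log2 values of 12.77, 12.25 and 12.91 at 10 days and 12.37, 11.65 and 12.36 at 40 days. The ages overlapped, since number 2 was low at both. The paired differences were alike, at -0.41, -0.60 and -0.55, and *Jhbp14* was lower with the block by -0.52 ± 0.06 (SE; limma adjusted p = 0.0366, and 0.449 without the block). *Jhbp5* was the only gene of the 9 that was higher, at 0.18 ± 0.06 (adjusted p = 0.331, and 0.0874 with the block), with all 3 samples of 40 days above those of 10 days. It was the 1 gene of the 9 whose ages did not overlap, against 19.8% of all tested probe sets. *Jhbp7*, the neighbour of *to* in the reference annotation, gave -0.17 ± 0.12 (adjusted p = 0.579).

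**Figure D4:**
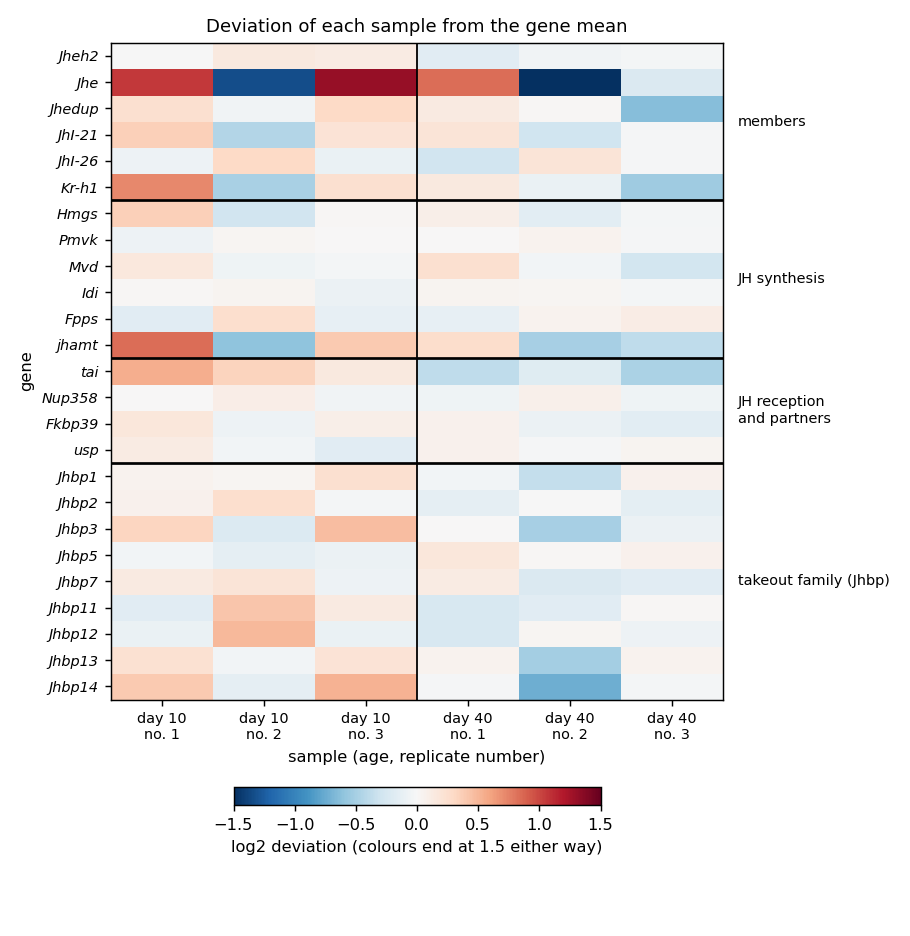
Log2 deviation of each sample from the mean of its gene over the 6 samples (colour, red above and blue below), with genes in rows by group and samples in columns by age and replicate number. Colours end at 1.5 log2 either way, and *Jhe* in number 2 at 40 days lies beyond. *Jhe*, *JhI-21* and *jhamt* are below their means in both samples of number 2, and *tai* is below its mean in the samples of 40 days.

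Genes of sex determination and sex-dependent genes of the fat body, a tissue on which the hormone acts, were described as well. All 10 listed genes had a probe set, 9 were tested on 12 probe sets, and 0 passed without the block, with a median of -0.04. *Cyp4d21*, a P450 gene higher in males, had log2 values of 12.63, 11.11 and 12.27 at 10 days and 11.86, 10.14 and 11.05 at 40 days. It was lower with the block by -0.99 ± 0.10 (SE; limma adjusted p = 0.0279, and 0.492 without it), and it was the only one of the list that passed. Of the 12 probe sets, 7 were below 0 and 5 above. Among those above were *Yp1*, at 2.01 ± 0.88 (SE; limma adjusted p = 0.403, and 0.154 with the block), and *Yp3*, at 0.76 ± 0.75 (0.693 and 0.214). All older samples of *Yp1* lay above the younger ones, where 19.8% of all tested probe sets had ages that did not overlap. The mean of *Yp2* lay under 4, and it was not tested. By the F test between replicate numbers 4 of the 12 probe sets were under the threshold, against 4.72% of all tested, and the calls over all probe sets numbered 3 or 0 when a sample of number 1 was left out. *Cyp4d21* had the smallest adjusted p of these, 0.0147, and its number 2 overlapped the other samples. Number 2 lay below all other samples for 4 of the 12 probe sets and above them for 1, *Yp3*. *Yp3* had 9.82 and 10.16 in number 2 and between 7.09 and 8.78 in the others, and did not pass (adjusted p = 0.0908). The female-enriched *fit* had 3.82 and 4.74 in number 2 and between 8.07 and 9.72 in the other samples (adjusted p = 0.0186). The brighter probe set of *dsx*, the sex determination gene, had 9.84 and 9.63 in number 2 and between 10.20 and 10.82 in the other samples (adjusted p = 0.0380). Its dimmer probe set reached the filter at 4 only through the other numbers, with 3.44 and 2.66 in number 2, so its p is no support for a difference, and *fit* in number 2 lay close to the filter.

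The genes whose pattern over the 6 samples was closest were found for the 4 juvenile hormone genes with the widest range, by Pearson's r against 9277 tested probe sets with 1 gene. For *Jhe* they were *CG32750*, *Sec61beta* and *CG8860*, with r of 0.994, 0.993 and 0.993. For *Kr-h1* they were *Mvl*, *Ugt317A1* and *Srp54k*, between 0.987 and 0.989. For *Jhedup* they were *sr*, *Tango6* and *CG31516*, between 0.965 and 0.979, and for *JhI-21* *Alg12*, *CG9302* and *CG31515*, between 0.998 and 0.999. These values are the highest found among all of these over 6 shared samples and are given as a description. Among the tested members, r was 0.945 between *Jhe* and *JhI-21*, -0.879 between *JhI-21* and *JhI-26*, and 0.704 between *Jhe* and *Kr-h1* (n = 6 samples).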

How the data were processed

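Expression was measured in 6 samples on 1-colour arrays after amplification of 150 ng of RNA per sample, per the labels' protocols. The deposited log2 values were made by the authors with GCRMA, per the submitters' processing notes; the sources used here give no version, annotation build or filter. Detection calls and raw images were not used here. The log2 scale was read from the range, 2.06 to 16.10, with array medians between 7.51 and 7.53. The number of arrays limits the precision.

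Genes were assigned through the array's gene annotation, with symbols updated by Entrez ID in the RefSeq table of Release 6 plus ISO1 MT: 13333 probe sets had 1 gene, 390 several and 1408 none. The values were used without further normalization. The 10286 probe sets whose mean log2 value reached 4 were tested with limma 3.58.1 in R 4.3.3 (lmFit and eBayes with a trend, two-sided). Benjamini-Hochberg adjustment ran over all of these, and adjusted p under 0.05 was called. Replicate numbers were compared by the moderated F test with age as a covariate. The labels call the samples independent biological replicates and do not say that numbers pair them. Same-numbered samples deviated together from their age means, with correlations of 0.707, 0.772 and 0.353, each over 0.1, so the numbers were taken as pairs. The block then changed no call of a member.

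The members and lists were chosen with earlier results of these data known. All measured members are named. From each list, genes that passed with or without the block are named, up to 4, and otherwise the 2 with the smallest adjusted p. *gce*, *Hmgs*, *Cyp6g2*, *Jhbp5*, *Jhbp7*, *fit*, *dsx*, *Yp1*, *Yp2* and *Yp3* were named after their values were seen. So were the single markers given by age or replicate number, and the genes of the closing observation. Lists of relatives by protein sequence were not used here, and the marker *nos* could not be matched to 1 gene. The fits were tested on simulated data. Alternatives were other filters, centring, quantile normalization, eBayes settings, array weights, a floor at 4, the block and samples left out. Leaving out single samples in the F test was added after the data were seen. Plots were made with matplotlib 3.10.9.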

Additional observations from a re-analysis of the deposited data

How the results depend on the processing

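None of the 6 tested genes passed between the ages under any of 119 combinations of a gene with an alternative, and the smallest adjusted p among them was 0.0683. The sign held for *Jheh2* (-0.21 to -0.13), *Jhe* (-1.53 to -0.03), *Jhedup* (-0.52 to -0.02) and *Kr-h1* (-0.68 to -0.04). It turned for *JhI-21* in 3 fits that each left out a sample: day 10 replicate 1 (0.0829), day 40 replicate 2 (0.0486) and day 10 replicate 3 (0.00091), in a leave-one-out range of -0.321 to 0.0829. For *JhI-26* it turned when day 10 replicate 2 (0.0489) or day 40 replicate 1 (0.0433) was left out, in a range of -0.195 to 0.0489. The count of all probe sets called between the ages, 35, was 21 with a filter at 6, 17 without both samples of number 2 and 16 to 32 with 1 sample left out. It was 198 with the replicate block, 248 with the block and quantile normalization, and 7 to 118 with the block and 1 number left out. The count of juvenile hormone genes called between the replicate numbers, 1, was 0 with no filter, with a filter at 6, where *Jhe* was not tested, by eBayes without a trend and without both samples of number 2, and 0 to 1 with 1 sample left out. The count of all probe sets called between the numbers, 485, was 1 with no filter, 47 without both samples of number 2 and 0 to 488 with 1 sample left out. Why the counts moved was not tested, beyond the fewer samples or probe sets that some alternatives hold. *Met* and *gce* lay at background, which limits what can be said of the receptors.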

Other observations

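*Jheh2* lay outside the 4 genes with the widest range, and its closest patterns were chosen after the values were seen. They were *Drip*, an aquaporin gene, *GstD7*, a Delta class glutathione S-transferase gene, and *CG31103*, with Pearson's r of 0.997, 0.995 and 0.995 over the 6 samples. *GstD7* had log2 values of 6.61, 7.62 and 7.62 at 10 days and 5.50, 6.23 and 6.31 at 40 days, a mean difference of -1.27. *CG31103* differed by -0.55 and *Drip* by -0.39, against -0.17 for *Jheh2*. Since they were chosen for their likeness to a gene whose ages do not overlap, their own age differences are a description and carry no test.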
